A study of Mus musculus with 6 samples.

Results

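The genes of the transforming growth factor beta (TGF-beta) system comprise 10 members here: the ligand genes Tgfb1, Tgfb2 and Tgfb3, the receptor genes Tgfbr1, Tgfbr2 and Tgfbr3, the latent TGF-beta binding protein genes Ltbp1, Ltbp2 and Ltbp3, and Tgfbi, a matrix protein gene induced by TGF-beta. They were taken by name, each matched to 1 Ensembl gene, and are 10 of 55385 mouse genes in the count table. They were measured by RNA-seq in PDVC57, an established mouse squamous carcinoma line that descends from keratinocytes transformed by a chemical carcinogen. There were 3 libraries of PDVC57 cells with Sox2 knockout and 3 of PDVC57 cells with Sox2 overexpression, and the design text describes cells low or high in Sox2, a stem cell transcription factor, that were isolated from grafted tumours. It gives as the aim the programmes by which Sox2 in tumour stem cells acts on neutrophils. The labels name no unmodified PDVC57 group, clone number, construct, host strain, age, treatment or time, and do not say whether the replicates came from separate tumours, so each p-value measures the spread between these libraries, which may be technical. A difference below is overexpression over knockout.

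TGF-beta ligands are secreted as latent dimers, in which the processed propeptide stays around the growth factor. Latent TGF-beta binding proteins tether this complex to the matrix, and integrins or proteases release the active ligand. Active ligand brings the type II receptor (Tgfbr2) together with the type I receptor (Tgfbr1), which phosphorylates Smad2 and Smad3, and betaglycan (Tgfbr3) presents ligand to them. In squamous epithelium the pathway is known for restraining keratinocyte division, and in carcinoma for motility, matrix production and drug tolerance.

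The libraries separated by their labels. Sox2 had 25 to 49 counts in a knockout library and 2566 to 4095 in an overexpression library. Totals ran from 31247976 to 38543221 counts, and the correlation of log2 CPM (counts per 1e6 counts) across genes was 0.973 to 0.990 within groups and 0.856 to 0.913 across them. The 25 keratinocyte markers summed to 7193 to 11090 CPM with knockout and 18060 to 22907 CPM with overexpression, and Krt5, Krt14 and Cdh1 were present in every library. In the test 17 of the 25 were higher with overexpression, 0 were lower and 8, Krt5 and Krt14 among them, were not called. Knockout replicate 3 had the least Krt5 and Krt14, at 218 and 347 CPM. The 10 fibroblast markers summed to 53206 to 81265 CPM with knockout and 283 to 471 CPM with overexpression, and all 10 were lower in the test. The corresponding ranges were 41.2 to 234 against 14.5 to 28.9 CPM for 12 white blood cell markers, 36.9 to 129 against 13.6 to 20.3 CPM for 10 endothelial markers, and 318 to 447 against 111 to 177 CPM for 10 mural cell markers. In the same order, 7 of 9, 7 of 8 and 7 of 9 tested genes were lower. Most of the overexpression sums came from few genes, named after their values were seen. These were Csf1r and Cd68 (means 11.6 and 8.62 CPM), Tek (13.8 CPM), and Notch3, Acta2 and Mcam (65.6, 37.0 and 32.3 CPM). Acta2 was lower, Notch3 higher and the others not called. Mean Ptprc fell from 40.1 to 0.491 CPM, Pecam1 from 14.3 to 2.68, Cdh5 from 8.49 to 0.0366 and Rgs5 from 60.1 to 0.126 CPM. Among defining markers, Col1a1, Col3a1 and Dpt had counts in every library, Rgs5 was at 0 in overexpression replicates 1 and 2, and Cdh5 was at 0 in overexpression replicate 1. In bulk RNA, fewer cells of a type and less RNA per cell cannot be told apart, and the part of these other cells in the differences below was not tested.

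Promoter sequence was available to set beside the counts for 8 of the 10 members (RefSeq, GRCm38.p6), as the 250 bases before the start site. The windows of Tgfb2, Tgfbi and Ltbp1, which were lower with overexpression, are printed because they hold matches to transcription factor motifs, and that of Tgfb1, which was not called, is printed beside them. Bases past an earlier annotated start of the gene were cut off at the 3′ end, which left 187 bases for Tgfbi and 201 for Ltbp1. Each runs 5′ to 3′ on the gene's strand. Capitals mark matches, on either strand, to the SOX core (ACAAAG or ACAATG), the SMAD element (GTCTAGAC or CAGACA), the AP-1 site (TGANTCA), the cyclic AMP response element (TGACGTCA) and the TATA box (TATAAA).
Tgfb2 upstream window, chr1:186705990-186706239, minus strand: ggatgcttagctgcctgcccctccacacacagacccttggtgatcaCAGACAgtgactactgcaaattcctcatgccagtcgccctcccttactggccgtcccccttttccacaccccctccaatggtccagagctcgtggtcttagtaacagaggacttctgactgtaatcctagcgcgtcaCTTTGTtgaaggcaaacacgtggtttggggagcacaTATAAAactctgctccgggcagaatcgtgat
Tgfbi upstream window, chr13:56609336-56609522, plus strand: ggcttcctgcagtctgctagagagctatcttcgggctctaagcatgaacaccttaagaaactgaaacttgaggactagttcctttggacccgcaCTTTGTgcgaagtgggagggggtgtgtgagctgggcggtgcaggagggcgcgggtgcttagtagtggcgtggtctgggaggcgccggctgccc
Ltbp1 upstream window, chr17:75005279-75005479, plus strand: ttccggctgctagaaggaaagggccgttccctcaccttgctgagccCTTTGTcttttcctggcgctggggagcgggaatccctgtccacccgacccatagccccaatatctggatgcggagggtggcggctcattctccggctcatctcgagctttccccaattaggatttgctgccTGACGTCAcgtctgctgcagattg
Tgfb1 upstream window, chr7:25686752-25687001, plus strand: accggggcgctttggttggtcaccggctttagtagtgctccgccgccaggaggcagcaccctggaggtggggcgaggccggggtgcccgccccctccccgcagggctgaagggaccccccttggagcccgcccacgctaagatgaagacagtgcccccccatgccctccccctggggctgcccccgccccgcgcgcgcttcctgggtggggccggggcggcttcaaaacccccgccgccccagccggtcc
The SOX core was found in 4 of the 8 windows (Tgfb2, Tgfbr1, Ltbp1 and Tgfbi), of which Tgfbr1 was not called, and in 25.2% of all 32851 promoter windows of the same length. Tgfbr2 and Ltbp2, which were lower, held 0 SOX matches, as did Tgfb1 and Ltbp3, which were not called. The windows of Tgfbr1, which held a SOX match, and of Tgfbr2, Ltbp2 and Ltbp3 are not printed. The printed windows alone therefore do not show how SOX matches relate to the calls. Positions are counted from the RefSeq start just past the full 250-base window, also where the printed window was cut. The Tgfb2 SOX match lay 67 to 62 bases before that start, the Ltbp1 match 204 to 199 bases and the Tgfbi match 156 to 151 bases. For Tgfbr1 the match lay 29 to 24 bases before it. Tgfb2 alone among the 8 held a SMAD element (17.3% of all windows) and a TATA box (12.4%), the latter 31 to 26 bases before its start. The cyclic AMP response element was found only in the Ltbp1 window, against 1.55% of all windows, and the AP-1 site in none of the 8, against 6.75%. The Tgfb1 window held 5 GC boxes (GGGCGG, present in 32.7% of all windows), and its GC content was 75.2%, where the median window had 52.4% and the Tgfb2 window 53.6%. These matches describe letters in short windows and do not show binding.

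Of the 10 members, all passed the filter on low counts, 7 were lower with Sox2 overexpression and 0 were higher (edgeR quasi-likelihood test, adjusted p under 0.05 over 18504 genes). At that threshold 18.0% of all tested genes were lower, 13.6% were higher and 31.6% were called in either direction. At an unadjusted p under 0.05, 0 members were higher, and DESeq2 also called 0 higher. The 7 genes were Tgfb2, Tgfb3, Tgfbr2, Tgfbr3, Ltbp1, Ltbp2 and Tgfbi, and their knockout and overexpression libraries did not overlap, with every overexpression library below every knockout library, as in 26.5% of all tested genes (24.4% had every overexpression library above, and 50.9% did not overlap in either direction). The median log2 fold change was -1.30 over the members and -0.02 over all tested genes. Within each class of molecule the calls differed: 1 ligand, 1 receptor and 1 latency protein were not called. Fold changes of members were not tested against each other. When libraries were scaled to the keratinocyte markers in place of TMM, the median of all genes moved to -1.19. All 10 members were then lower, as were 13328 of all 18504 tested genes (3329 with TMM). Of the called genes 97.5% were lower, against 56.9% with TMM.

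**Figure D1:**
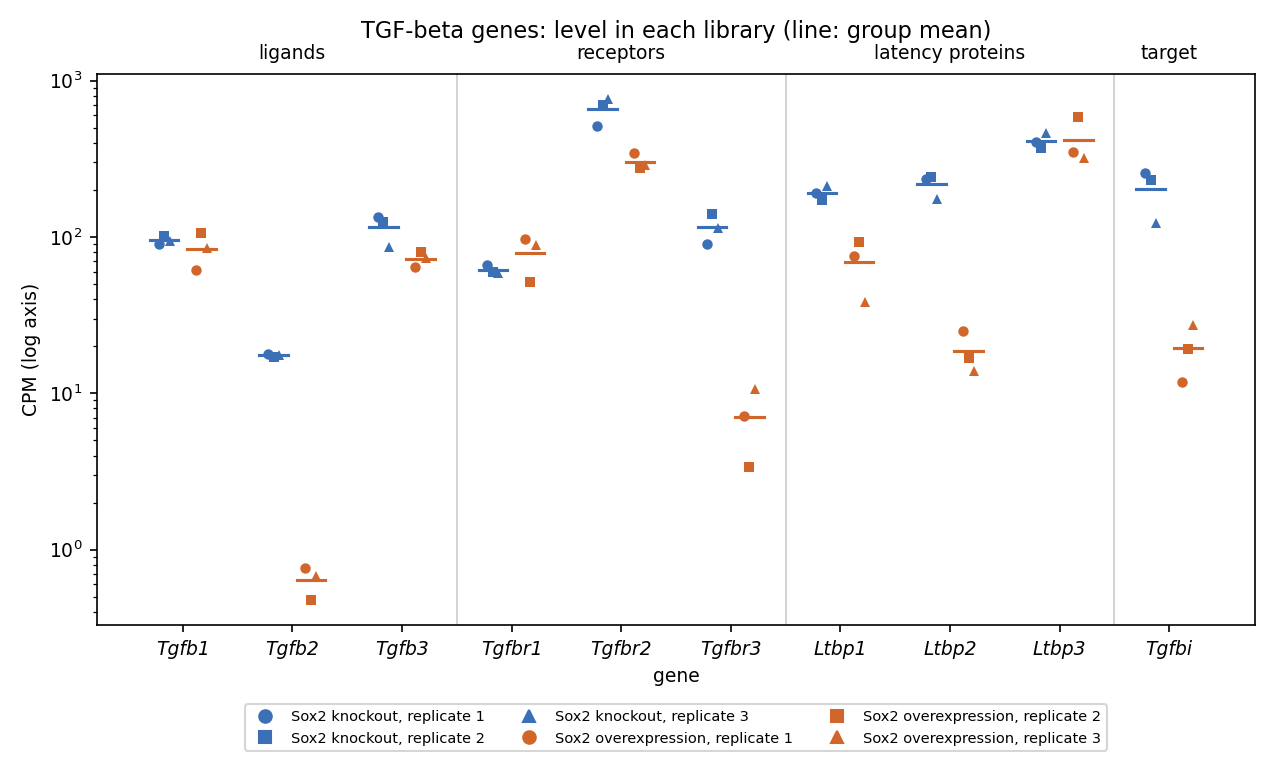
Level of each TGF-beta gene in CPM (log axis) in the 3 knockout libraries (blue) and the 3 overexpression libraries (orange), with 1 symbol for each replicate number and a line at the group mean. The groups are apart for 7 genes and overlap for Tgfb1, Tgfbr1 and Ltbp3, and Tgfb2 with overexpression is the lowest of all, under 1 CPM.

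Tgfb2 encodes the ligand that depends most on betaglycan for receptor binding (ENSMUSG00000039239, chromosome 1, 186622792 to 186705989, minus strand, GRCm38). Knockout replicates 1, 2 and 3 held 608, 516 and 641 of its counts (17.8, 17.1 and 17.6 CPM) and 25, 14 and 27 were in the overexpression replicates (0.763, 0.474 and 0.683 CPM). The knockout libraries were nearly level with each other, and each stood far above every overexpression library. The mean went from 17.5 ± 0.386 to 0.640 ± 0.149 CPM (SD, n = 3 each), 27.0-fold lower, with a log2 fold change of -4.76 (standard error 0.26, edgeR adjusted p = 3.52e-06). Of all genes tested, 5.75% had a fold change as low or lower. Its fall was smaller than those of 9 of the 10 fibroblast markers, which had log2 fold changes from -9.98 (Dpt) to -2.11 (Fbln1).

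Tgfb3 encodes a ligand with the same receptors (ENSMUSG00000021253, chromosome 12, 86056745 to 86079041, minus strand). It measured 135, 124 and 85.6 CPM in the knockout libraries and 63.8, 80.3 and 73.4 CPM in the overexpression libraries. The highest overexpression library was just under knockout replicate 3, which was itself the lowest of its group. This is a log2 fold change of -0.66 (standard error 0.20, 1.58-fold lower, edgeR adjusted p = 0.0314). This call was lost when a library was left out, with an adjusted p of 0.117 without knockout replicate 1, 0.110 without knockout replicate 2, 0.0963 without overexpression replicate 1 and 0.0888 without overexpression replicate 3, while over all alternatives it ran from 1.20e-05 to 0.117.

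Tgfb1, the ligand best known from immune regulation and fibrosis (ENSMUSG00000002603, chromosome 7, 25687002 to 25705077, plus strand), was not called. Its levels were 90.5, 102 and 94.4 CPM with knockout and 61.1, 106 and 84.7 CPM with overexpression. The overexpression libraries lay on both sides of the knockout libraries, with replicate 1 lowest and replicate 2 highest. The log2 fold change was -0.19 (95% interval -0.65 to 0.27, edgeR adjusted p = 0.506), with an interval on both sides of 0.

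Per kilobase of the union of annotated exons (5042 bases for Tgfb1, 3383 for Tgfb3), Tgfb3 had the highest ligand level and Tgfb2 the lowest in both groups. The order of Tgfb3 and Tgfb1 depends on the length used. In CPM, Tgfb3 averaged 115 and Tgfb1 95.7 with knockout, and Tgfb1 averaged 83.9 and Tgfb3 72.5 with overexpression. With knockout the ligand levels were 33.9 ± 7.62 CPM per kb for Tgfb3, 19.0 ± 1.20 for Tgfb1 and 3.02 ± 0.0666 for Tgfb2 (SD, n = 3). With overexpression they were 21.4 ± 2.45 for Tgfb3, 16.6 ± 4.45 for Tgfb1 and 0.110 ± 0.0258 CPM per kb for Tgfb2 (SD, n = 3). Tgfb3 and Tgfb1 were apart in the knockout libraries, where the lowest Tgfb3 value was 25.3 and the highest Tgfb1 value 20.3 CPM per kb, and they overlapped with overexpression. The share of Tgfb2 among the ligands went from 5.47% ± 0.844 to 0.304% ± 0.121 (SD, n = 3 each; exact permutation p = 0.10, the smallest possible with 3 against 3 libraries, 0.150 adjusted over the 9 shares computed). Tgfb1 and Tgfb3 together made up the remainder, and their shares overlapped between groups.

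Tgfbr2, the type II receptor that binds ligand first (ENSMUSG00000032440, chromosome 9, 116084293 to 116175360, minus strand), was the most abundant receptor. Its levels were 514, 697 and 765 CPM with knockout and 343, 276 and 288 CPM with overexpression. All overexpression libraries lay below the lowest knockout library, replicate 1. Its mean fell from 659 ± 130 to 303 ± 35.8 CPM (SD, n = 3 each), 2.18-fold, with a log2 fold change of -1.12 (standard error 0.20, edgeR adjusted p = 0.00266).

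Tgfbr3, encoding the co-receptor betaglycan (ENSMUSG00000029287, chromosome 5, 107106570 to 107289629, minus strand), had the largest fall among the receptors. Its counts were 3094, 4263 and 4155 with knockout (90.7, 141 and 114 CPM) and 236, 100 and 419 with overexpression (7.20, 3.38 and 10.6 CPM). Overexpression replicate 2 was the lowest library and replicate 3 the highest of that group, and both were far under the knockout libraries. Its log2 fold change was -4.02 (standard error 0.39, 16.2-fold lower, edgeR adjusted p = 0.000102).

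Tgfbr1, the type I receptor kinase (ENSMUSG00000007613, chromosome 4, 47353222 to 47414931, plus strand), did not follow the other receptors. It measured 66.3, 59.6 and 58.6 CPM with knockout and 96.3, 51.8 and 89.3 CPM with overexpression. Overexpression replicates 1 and 3 were above all knockout libraries and replicate 2 below them. The log2 fold change was 0.36 (95% interval -0.15 to 0.88, edgeR adjusted p = 0.253). Without overexpression replicate 2 it was 0.61 and was called higher (adjusted p = 0.00736, the lowest over the alternatives, which reached 0.517), and with keratinocyte scaling it was -0.79 and called lower (adjusted p = 0.0207).

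The makeup of the receptor transcripts differed between the groups. Per kilobase, Tgfbr2 took 74.6% ± 2.97 of the receptor level with knockout and 74.1% ± 5.31 with overexpression (SD, n = 3 each). Tgfbr1 went from 9.01% ± 2.32 to 23.8% ± 4.41 and Tgfbr3 from 16.4% ± 2.07 to 2.11% ± 1.01 (SD, n = 3 each). The order of these last genes was reversed: in every knockout library Tgfbr3 had the larger share and in every overexpression library Tgfbr1 had. An exact two-sided permutation test of 3 against 3 libraries cannot go below p = 0.10, and gave p = 0.10 for the shares of both genes (0.150 after adjustment over 9 shares, those of the ligands and latency proteins included). Shares within a library do not depend on how libraries are scaled to each other.

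**Figure D2:**
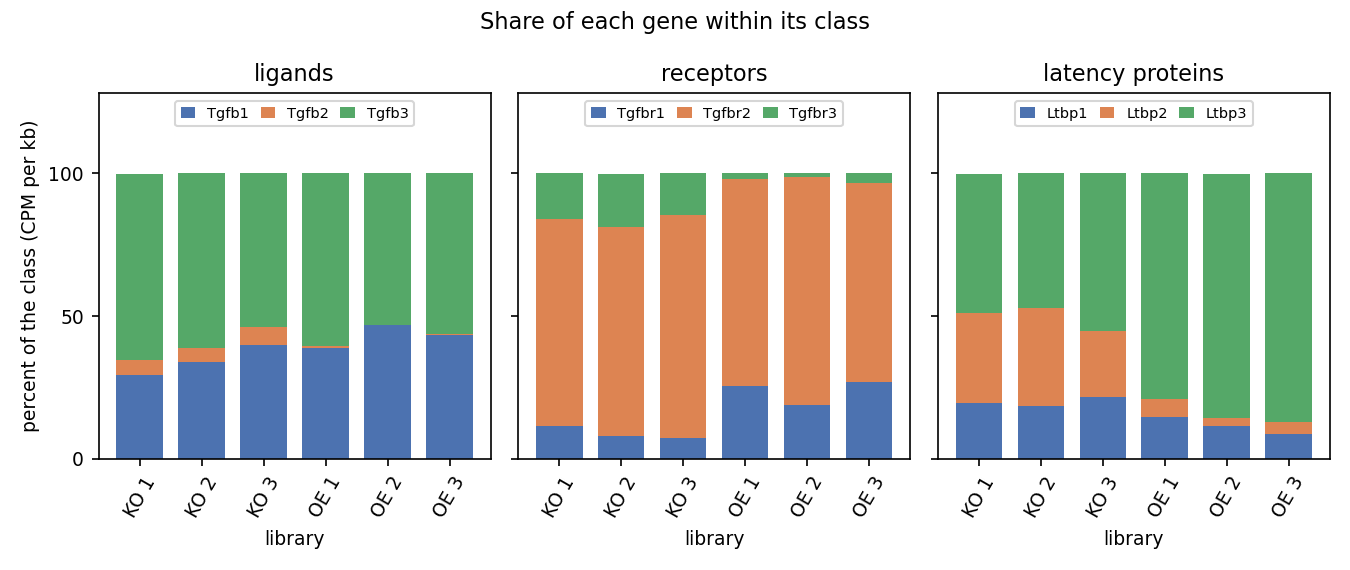
Percent of each class made up by each gene in each library, from CPM per kb of exon, for the ligands, receptors and latency proteins in the knockout (KO) and overexpression (OE) libraries. Tgfb2 and Tgfbr3 are narrow bands with overexpression. Of the summed level of Ltbp1, Ltbp2 and Ltbp3, Ltbp3 covers 79.1% to 86.9% there against 47.0% to 55.2% with knockout. Ltbp4, which is not a member, is left out of the latency proteins.

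The latency proteins also moved unequally. Ltbp2, a microfibril protein that, unlike its relatives, is not known to bind latent TGF-beta (ENSMUSG00000002020, chromosome 12, 84783212 to 84876532, minus strand), had 235, 242 and 175 CPM with knockout and 25.0, 16.8 and 13.9 CPM with overexpression. Every overexpression library was well under knockout replicate 3, the lowest of its group. It changed by a log2 fold of -3.55 (standard error 0.26, 11.7-fold lower, edgeR adjusted p = 1.66e-05).

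Ltbp1, which tethers latent TGF-beta to fibronectin and fibrillin matrix (ENSMUSG00000001870, chromosome 17, 75005568 to 75392512, plus strand), fell less. It measured 191, 172 and 213 CPM with knockout and 75.6, 92.6 and 38.5 CPM with overexpression. Overexpression replicate 3 was the lowest library, and the highest overexpression library was still under all knockout libraries. Its log2 fold change was -1.48 (standard error 0.29, 2.79-fold lower, edgeR adjusted p = 0.00497).

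Ltbp3, which aids secretion and matrix deposition of latent TGF-beta (ENSMUSG00000024940, chromosome 19, 5740904 to 5758532, plus strand), was not called. Its levels were 403, 368 and 460 CPM with knockout and 347, 584 and 319 CPM with overexpression. Overexpression replicate 2 was above every knockout library, and replicates 1 and 3 were below every one. The log2 fold change was 0.02 (95% interval -0.53 to 0.58, edgeR adjusted p = 0.955), and its sign differed between alternatives, down to -1.17 with keratinocyte scaling. As a share of these 3 members per kilobase, Ltbp3 went from 50.3% ± 4.27 to 83.9% ± 4.23 (SD, n = 3 each), Ltbp2 from 29.7% ± 5.76 to 4.42% ± 1.80 and Ltbp1 from 20.0% ± 1.49 to 11.7% ± 2.86. Each of these shares had an exact permutation p = 0.10, the smallest possible with 3 against 3 libraries (0.150 adjusted). The shares leave out Ltbp4, which is not a member and went from 18.8 ± 2.35 to 51.2 ± 7.19 CPM per kb (SD, n = 3 each). Ltbp3 itself averaged 45.2 with knockout and 45.9 CPM per kb with overexpression. Its larger share therefore holds among the 3 members only, not for the whole family.

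Tgfbi encodes a secreted integrin-binding matrix protein that was first found as a gene induced by TGF-beta (ENSMUSG00000035493, chromosome 13, 56609523 to 56639562, plus strand). It measured 258, 232 and 123 CPM with knockout and 11.8, 19.2 and 27.5 CPM with overexpression. Knockout replicate 3 was lower than the other knockout libraries but far above the highest overexpression library. The log2 fold change was -3.39 (standard error 0.38, 10.5-fold lower, edgeR adjusted p = 0.000210).

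Over all members, the order of levels per kilobase changed between the groups. With knockout it ran from Tgfbr2 (80.5 CPM per kb) over Tgfbi (54.2), Ltbp3 (45.2), Tgfb3 (33.9), Ltbp2 (26.6), Tgfb1 (19.0), Ltbp1 (18.0), Tgfbr3 (17.6) and Tgfbr1 (9.41) to Tgfb2 (3.02). Neighbours in that order overlapped except at the steps from Ltbp3 to Tgfb3, from Ltbp2 to Tgfb1, from Tgfbr3 to Tgfbr1 and from Tgfbr1 to Tgfb2. With overexpression Ltbp3 (45.9) and Tgfbr2 (37.0 CPM per kb) led and overlapped, and Tgfb3 (21.4), Tgfb1 (16.6), Tgfbr1 (12.1), Ltbp1 (6.45) and Tgfbi (5.17) came next, each overlapping its neighbours among these 5. Ltbp2 (2.27), Tgfbr3 (1.08) and Tgfb2 (0.110 CPM per kb) followed, each apart from its neighbours. Tgfbi thus went from the second place to the seventh and Tgfbr1 from the ninth to the fifth.

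**Figure D3:**
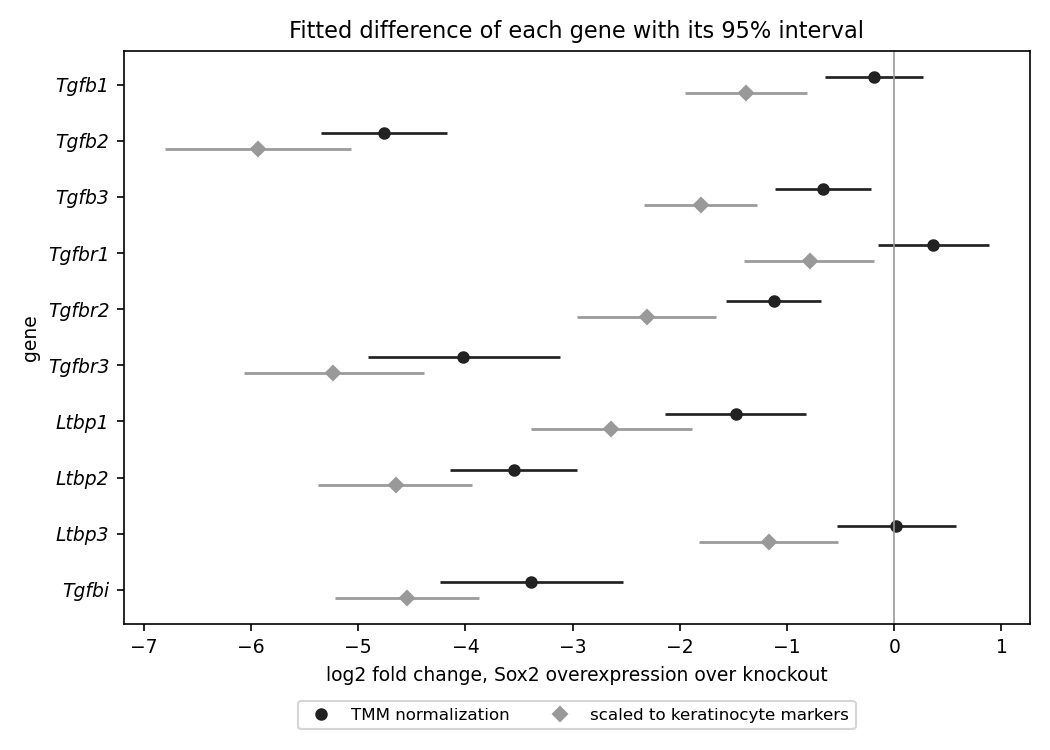
Log2 fold change of each TGF-beta gene, overexpression over knockout, with its 95% interval from the edgeR fit, under TMM normalization (black) and with libraries scaled to keratinocyte markers (grey). The grey points lie lower by about the shift of the median of all genes, from -0.02 to -1.19, and the order of the genes is the same under both.

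Counting could have mixed some members with neighbours, since the strand setting is not given in the sources used here. Exons of Tgfb2 overlap 124 bases of the antisense gene Gm29491, those of Tgfb3 overlap Gm37804 and Gm48008 on the other strand, and those of Ltbp2 overlap 764 bases of the antisense gene D030025P21Rik. Tgfbr3 overlaps 297 bases of Gm43422 on its own strand. Tgfb1, Tgfbr1, Tgfbr2, Ltbp1 and Tgfbi share no exon bases with another annotated gene. Of the pathway genes named below, Fbn1, Acvrl1, Eng, Fst, Tgif2, Zfyve9, Junb and Fn1 overlap a gene on the other strand and Nrp1 a microRNA gene on its own strand.

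Genes that hold, release or process latent TGF-beta formed a list of 19, of which 8 were lower, 2 higher and 9 not called, with a median log2 fold change of -0.36 (52.6% called, against 31.6% of all tested genes). The lower genes with the smallest p-values were Emilin1, Mmp2, Fbn1 and Lrrc32. Fbn1, fibrillin-1 of the microfibrils that carry latent complexes, went from 1930 ± 457 to 17.6 ± 4.71 CPM (SD, n = 3 each; log2 fold change -6.77, edgeR adjusted p = 2.21e-06). Emilin1, a matrix protein that holds back processing of the TGF-beta precursor, and Mmp2, a gelatinase that can release latent ligand, had log2 fold changes of -6.11 and -7.56. Lrrc32, the cell surface anchor of latent TGF-beta also known as GARP, had 33.7 ± 12.1 CPM with knockout and 0.231 ± 0.145 CPM with overexpression (SD, n = 3 each; log2 fold change -7.19). The 2 higher genes, named after their values were seen, were Ltbp4, the remaining member of its family, and Itgb8, a subunit of an integrin that activates TGF-beta. Ltbp4 measured 129, 131 and 104 CPM with knockout and 281, 372 and 339 CPM with overexpression, so that it moved opposite to Ltbp1 and Ltbp2, with a log2 fold change of 1.45 (edgeR adjusted p = 0.000338). With keratinocyte scaling it was 0.28 and not called (adjusted p = 0.292, the highest over the alternatives, whose lowest was 7.71e-13). Itgb8 rose from 3.20 ± 0.816 to 13.2 ± 2.38 CPM (SD, n = 3 each; log2 fold change 2.04, edgeR adjusted p = 0.000575).

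Other receptors, co-receptors and extracellular antagonists numbered 12, with 6 lower, 3 higher and 3 not called and a median log2 fold change of -0.76 (75.0% called, against 31.6% of all tested genes). The proteoglycans Bgn and Dcn, which bind TGF-beta in matrix, had log2 fold changes of -6.21 and -8.77, and Dcn is also 1 of the 10 fibroblast markers. Acvrl1 and Eng, a type I receptor and a co-receptor best known from endothelium, had log2 fold changes of -5.84 and -4.47. In the same libraries 7 of 8 tested endothelial markers and all 10 fibroblast markers were lower. Whether these falls are linked was not tested. The 3 higher genes were Fst, Acvr1b and Nrp1, named after their values were seen. Fst, the activin antagonist follistatin, rose from 103 ± 21.6 to 398 ± 43.6 CPM (SD, n = 3 each; log2 fold change 1.94, edgeR adjusted p = 0.000131), and was called higher with keratinocyte scaling too. Acvr1b, an activin type I receptor, and Nrp1, a co-receptor of several growth factors, had log2 fold changes of 0.77 and 0.59. With keratinocyte scaling Acvr1b was -0.39 and not called (adjusted p = 0.151), and Nrp1 was -0.56 and called lower (adjusted p = 0.0494). Nrp1 was not called without knockout replicate 2 (adjusted p = 0.0799), knockout replicate 3 (0.101) or overexpression replicate 3 (0.0680), where all alternatives spanned 0.00424 to 0.101.

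Smads and their intracellular regulators numbered 18, of which 5 were higher, 0 lower and 13 not called, with a median log2 fold change of 0.21. The share called, 27.8%, was near and below the 31.6% of all tested genes. At an unadjusted p under 0.05 edgeR had 0 lower, and DESeq2 called 0 lower. Without overexpression replicate 2, 1 was lower: Pmepa1, an inhibitor of Smad activation named for this reason, with a log2 fold change of -0.87 (edgeR adjusted p = 0.00625). With keratinocyte scaling 0 were higher and 14 lower, in a setting where 13328 of all 18504 tested genes were lower. The 14 included Smad2 (-1.07), Smad3 (-0.92), Smad4 (-1.15) and Tgif1 (-0.57, edgeR adjusted p = 0.0447). Smad6 (-0.03), Smad7 (-0.47) and Zfyve9 (-0.61) changed sign there and were not called. The receptor-activated Smad2 and Smad3 and their partner Smad4 were not called, with log2 fold changes of 0.10, 0.27 and 0.02. The 5 higher genes were Tgif2, Smad6, Smad7, Zfyve9 and Tgif1. Smad7, an inhibitory Smad that TGF-beta itself induces, measured 76.7, 90.9 and 76.4 CPM with knockout and 107, 165 and 127 CPM with overexpression, a log2 fold change of 0.71 (edgeR adjusted p = 0.0199). Smad6, its relative that acts mainly on bone morphogenetic protein signalling, rose from 7.90 ± 0.231 to 17.6 ± 2.88 CPM (SD, n = 3 each; log2 fold change 1.15, edgeR adjusted p = 0.00192). The corepressor gene Tgif2 had a log2 fold change of 1.52, its relative Tgif1 0.58, and Zfyve9, which brings Smads to the receptors, 0.57. Smad7 was not called without knockout replicate 1 (edgeR adjusted p = 0.0659) or 3 (0.0675), and neither Zfyve9 nor Tgif1 was without knockout replicate 2 (0.0901 and 0.0995), knockout replicate 3 (0.0833 and 0.121) or overexpression replicate 3 (0.0818 and 0.0689). Over the alternatives the adjusted p ran from 0.00361 to 0.113 for Smad7, 0.00627 to 0.0901 for Zfyve9 and 0.00791 to 0.121 for Tgif1. The count of 5 was 3 without knockout replicate 2, 2 without knockout replicate 3 and 3 without overexpression replicate 3.

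Known TGF-beta target genes numbered 25, of which 13 were lower, 4 higher and 8 not called, with a median log2 fold change of -1.21 (68.0% called, against 31.6% of all tested genes). The list holds 2 of the members (Ltbp2 and Tgfbi) and 3 genes of the fibroblast or mural marker lists (Acta2, Col1a1 and Col1a2). The collagen genes Col1a1 and Col1a2 and the matricellular gene Postn had log2 fold changes of -7.55, -7.74 and -7.87, and Tgfb1i1, a focal adhesion adaptor, had one of -5.00. Fn1, fibronectin, fell from 7567 ± 843 to 2491 ± 714 CPM (SD, n = 3 each; log2 fold change -1.60, edgeR adjusted p = 0.00143). The 4 higher genes were Cdkn2b, Junb, Klf10 and Smad7, and the first 3, like Fn1, were named after their values were seen. Cdkn2b, a cell cycle inhibitor through which TGF-beta arrests epithelium, rose from 24.5 ± 3.86 to 77.8 ± 14.8 CPM (SD, n = 3 each; log2 fold change 1.67, edgeR adjusted p = 0.000291). The transcription factor genes Junb and Klf10 had log2 fold changes of 0.73 and 0.67. With keratinocyte scaling the log2 fold changes were 0.53 for Cdkn2b, which was not called, -0.44 for Junb, -0.48 for Klf10 and -0.47 for Smad7. Junb was not called without knockout replicate 1 (edgeR adjusted p = 0.0982), knockout replicate 3 (0.108), overexpression replicate 2 (0.0516) or overexpression replicate 3 (0.0598), and Klf10 without knockout replicate 3 (0.0720) or overexpression replicate 3 (0.0647). Their adjusted p ran from 0.00246 to 0.117 and from 0.00309 to 0.0809 over the alternatives. The count of 4 was 2 without knockout replicate 1, 1 without knockout replicate 3 and 2 without overexpression replicate 3.

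**Figure D4:**
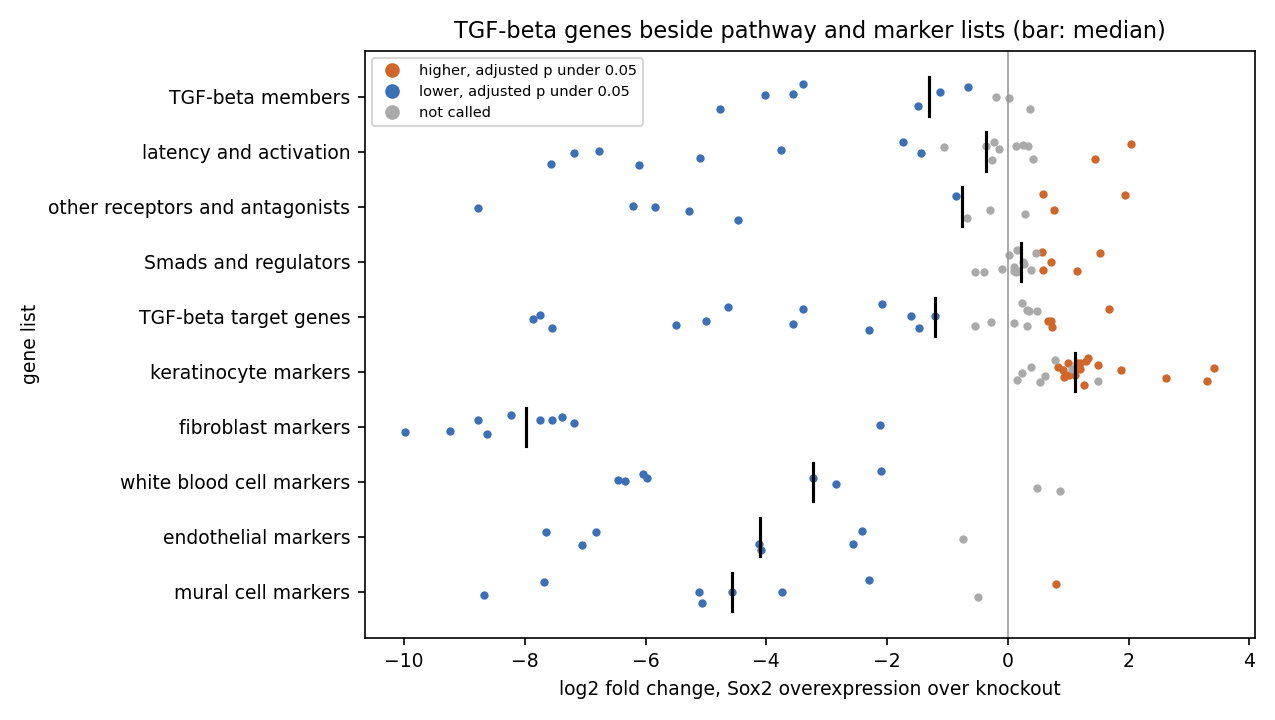
Log2 fold change, overexpression over knockout, of every tested gene of the TGF-beta members, the 4 pathway lists and the 5 marker lists, coloured by call, with a bar at each list's median. The members spread from -4.76 to 0.36 around a median of -1.30, the Smads and regulators lie between -0.55 and 1.52, and the fibroblast markers have a median of -7.98.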

How the data were processed

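The authors deposited raw counts per gene, whole numbers with 1 column per library, for 6 libraries. Per the submitters' processing notes, kallisto 0.44.0 and build mm10 (GRCm38) were used. Not given in the sources used here are the annotation, the strand setting and how the whole counts were made. RNA came from a column kit and libraries from a low-input kit, per the labels' protocols. Columns were matched to samples by their descriptions. The 96 rows that are no mouse gene (at most 2.23e-05% of a library) were left out. Symbols and exon lengths came from GENCODE M21 and matched 55144 of 55385 gene IDs.

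Low genes were removed by filterByExpr (count at least 10, total at least 15), libraries normalized with TMM and tested with edgeR 4.0.16 (quasi-likelihood, group as the only term, R 4.3.3), with Benjamini-Hochberg adjustment over 18504 genes and 0.05 as threshold. Standard errors are the size of the log2 fold change over the square root of F. CPM per kb divides CPM by the union of annotated exons, so an order of genes in this unit depends on that length. Library totals were 31247976 to 38543221 counts. A count of 0 allows 3 counts, or 0.0759 to 0.101 CPM, which covers counting error alone as reads are PCR products. No replicate pair agreed within sampling noise (lowest chi-square per degree of freedom 42.5). The fit was tested on simulated counts.

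The members, lists and tests were chosen with earlier results of these data known. The rule named the 10 members and, from each of 4 pathway lists, the 4 genes with the smallest p. Other genes are said to be named after their values were seen, as are Smad2, Smad3, Smad4 and Tgif1. Alternatives were DESeq2 1.42.0, RLE and upper-quartile normalization, TMM without stromal marker and collagen genes, scaling to keratinocyte markers, no filter, a replicate block, and leaving out each library. No batch is in the labels. Promoter motifs were searched on both strands. Some genes of the lists are counted but not reported by name here.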

Additional observations from a re-analysis of the deposited data

How the results depend on the processing

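Tgfb2, Tgfbr2, Tgfbr3, Ltbp1, Ltbp2 and Tgfbi were lower past the threshold in all 13 alternatives. The count of lower members was 6 or 7 in each fit that left out 1 library, where Tgfb3 lost its call in 4 of 6, and 10 with keratinocyte scaling. Higher members numbered 0 to 1 with a library left out, the 1 being Tgfbr1 without overexpression replicate 2. All genes called went from 5848 to 13671 with keratinocyte scaling, higher ones from 2519 to 343 and lower ones from 3329 to 13328. With a library left out, higher genes ranged from 1446 (without knockout replicate 2; 1610 without knockout replicate 3) to 2599. In that scaling the pathway lists had 1 higher and 17 lower (latency and activation), 1 and 10 (other receptors), 0 and 14 (Smads) and 0 and 20 (targets). The same scaling reversed Tgfbr1 (-0.79), Ltbp3 (-1.17), Smad2 (-1.07), Smad3 (-0.92), Smad4 (-1.15), Smad6 (-0.03), Smad7 (-0.47), Zfyve9 (-0.61), Acvr1b (-0.39), Nrp1 (-0.56), Tgif1 (-0.57), Junb (-0.44) and Klf10 (-0.48, all log2 fold changes). Ltbp3 was -0.05 and Smad4 -0.04 with upper-quartile normalization, and both were -0.03 without stromal genes in TMM. Leaving out 1 library gave -0.37 to 0.02 for Tgfb1, -0.28 to 0.20 for Ltbp3 and -0.03 to 0.06 for Smad4. Under TMM, 17 of the 25 keratinocyte markers were higher with overexpression, 0 lower and 8 not called, with a median log2 fold change of 1.12. Scaling to them sets their typical level equal between libraries, which shifts the fold changes of all genes down. The cause of the other changes was not tested.

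With the replicate number as a replicate block, 5593 genes were called, 7 members stayed lower, Ltbp3 was -0.03 and 1 Smad regulator, Pmepa1, was lower (-0.60, adjusted p = 0.0497). Deviations of same-numbered libraries correlated by 0.05, 0.06 and -0.05, and those of different numbers by -0.12 to 0.07, so not every library correlated best with its own number and the numbers were not taken as pairs. The 3 libraries a group limit the precision, and with 14 to 27 counts in an overexpression library Tgfb2 had the least depth of the members.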
